A study of Homo sapiens with 16 samples.

Results

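The HOXC genes form a cluster on human chromosome 12, and HOTAIR, a long non-coding RNA, is transcribed from the opposite strand between HOXC12 and HOXC11. The 10 genes described here, HOXC13, HOXC12, HOTAIR, HOXC11, HOXC10, HOXC9, HOXC8, HOXC6, HOXC5 and HOXC4, are 10 of the 33121 rows of the deposited count table, and all 10 have a row. The cluster was selected on measured values: HOTAIR and HOXC11 had higher counts in cells with a deletion of SLC30A10 and lower counts in a second knockout, each against its own control set. The values of all 10 genes in those contrasts are given as descriptions without a test. Messenger RNA was measured in HAP1, a near-haploid human cell line that grows attached to the dish and was derived from a chronic myeloid leukaemia line. The study's title names the toxicity of metals together with the RNA granule of mitochondria.

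The design has 16 libraries in 4 groups of 4. One group carried the genotype SLC30A10_delta, which removes a manganese exporter of the cell surface, and its control set carried SLC30A10+/+. The second knockout lacked another gene, and the second control set carried that gene in its intact form. The labels give a single line identifier for both control sets and another for each deletion, with no treatment named for any group. How many clones stand behind each deletion is not given in the sources used here, so an effect of a deletion and a property of the line that carries it cannot be told apart. Nothing in the labels says that the replicates were separate cultures, and p-values measure only the spread between these libraries.

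HOX genes encode homeodomain transcription factors that give cells their position along the body axis. In each of the mammalian HOX clusters the order of the genes along the chromosome follows the order of their use along the body, with low numbers towards the head and high numbers towards the tail and the ends of the limbs. Silent HOX genes are held by the Polycomb complexes, of which PRC2 places a repressive methyl mark on histone H3, while trithorax proteins keep active genes open. HOTAIR is known for its reported binding of PRC2 and of the LSD1/CoREST/REST complex and for its description as a regulator of the HOXD cluster on another chromosome.

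In GRCh38, with the GENCODE gene models, the 10 genes cover 117 kb of chromosome 12, 9 on the plus strand and HOTAIR on the minus strand. HOXC13 lies at chr12:53938765-53946544, HOXC12 at chr12:53954834-53958956, HOTAIR at chr12:53962308-53974956, HOXC11 at chr12:53973126-53977643 and HOXC10 at chr12:53985186-53990279. HOXC9 follows at chr12:53995509-54003337, HOXC8 at chr12:54009106-54012362, HOXC6 at chr12:54015897-54030823, HOXC5 at chr12:54017110-54035361 and HOXC4 at chr12:54016931-54056030. HOTAIR and HOXC11 point in opposite directions and their gene bodies overlap by 1831 bases. Of the 2421 exon bases of HOTAIR, the only ones inside the HOXC11 gene are the 59 bases of its first exon, which lie in a HOXC11 intron, and 0 bases are exonic in both. That exon, on the minus strand at chr12:53974898-53974956, is the exonic stretch of HOTAIR that lies within the transcribed part of HOXC11.

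Between HOXC10 and HOXC9 lies a gene of miR-196a, a microRNA whose best known targets are HOX messages, HOXC8 among them. The mature RNA is encoded at chr12:53991762-53991783 on the plus strand, and its seed, bases 2 to 8, is in capitals below. The 7-letter match to that seed, ACTACCT, was searched on the sense strand of the 3′ UTR of the 9 coding genes and was found in 1 of them, HOXC8, which holds 2 copies in 981 bases. Of 2855 genes with a 3′ UTR within 25% of that length, 4.31% hold the match. The UTRs are those of GENCODE models, and the RefSeq model of HOXC8 runs on to base 54012769, beyond the bases searched. The sites at chr12:54011494-54011522 and chr12:54012230-54012258, plus strand, are shown with the seed match in capitals. They were chosen because HOXC8 is the gene of the cluster that was lower in the SLC30A10 knockout. The microRNA itself was not measured by libraries of polyadenylated RNA (the row of its gene MIR196A2 held 0 to 1 counts), and a match is a description of the sequence alone.
hsa-miR-196a-5p: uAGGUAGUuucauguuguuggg
HOXC8 site at 3′ UTR position 128: acactcacaactctaACTACCTgtcagat
HOXC8 site at 3′ UTR position 864: ataaatctttaacatACTACCTaaaggga

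At the other end of the cluster HOXC4, HOXC5 and HOXC6 share exons in the same orientation. HOXC4 and HOXC6 share 484 exon bases, and HOXC5 shares 305 bases with each of them. Exon bases shared with any annotated gene make up 43.4% of HOXC5, 21.3% of HOXC4 and 14.9% of HOXC6, so reads from these bases cannot be given to a single gene and the counts of HOXC4 and HOXC5 are uncertain to that extent. In the RefSeq models of GRCh38.p14, HOXC4, HOXC5 and HOXC6 also begin at the same base, so that the same 250 bases lie upstream of all 3. That window, chr12:54016638-54016887 on the plus strand, was the only promoter window that the table used here held for a member, under the names of HOXC4 and HOXC5. It is printed because these genes share it. The motifs CCAAT and, separately, TATAAA were searched on both strands. The window holds 14 CpG dinucleotides, 2 copies of the first motif (in capitals, read on the opposite strand) and 0 of the second. Of the 35116 RefSeq windows of this length, 32.0% hold the first motif and 10.7% the second.
HOXC4, HOXC5 and HOXC6 upstream window: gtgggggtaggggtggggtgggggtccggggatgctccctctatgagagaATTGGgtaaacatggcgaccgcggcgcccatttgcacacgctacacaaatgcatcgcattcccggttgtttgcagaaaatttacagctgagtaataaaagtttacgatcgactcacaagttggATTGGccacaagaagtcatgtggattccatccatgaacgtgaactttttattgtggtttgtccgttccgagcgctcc

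Libraries held 16058856 to 16648151 counts, and levels are given as CPM, counts per 1000000 after scaling of the library size (mean ± SD, n = 4). A count of 3, used here as the floor of detection, corresponds to 0.181 to 0.187 CPM, which covers counting error only. Of the 15569 genes that passed the expression filter, 41.4% passed the test (adjusted p under 0.05, edgeR) between the SLC30A10 knockout and its control set, 13.7% between the second knockout and its control set, and 39.3% between the control sets. Counts of SLC30A10 itself were 6 to 9 in its control set and 3 to 11 in its knockout, so that they do not check the label.

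Marker genes were used to check the labelled line. Of 8 blood markers only TAL1 passed the filter; MPO was at 0 in every library, PTPRC, SPI1, GATA1 and CD33 did not exceed 3 counts, and CD34 and KLF1 reached at most 9 and 8. Of 5 epithelial markers KRT18 lay at 33.5 to 53.6 CPM, KRT8 at 2.48 to 10.5 CPM and EPCAM at 0.245 to 1.58 CPM, with CDH1 at 0 to 5 counts and KRT19 at 0. Of 6 mesenchymal markers VIM (vimentin), CDH2 (N-cadherin), FN1 (fibronectin) and COL1A1 were expressed, whereas COL1A2 and PDGFRB did not exceed 4 and 7 counts. Several of these markers also differed between the groups. In the SLC30A10 knockout 3 of the 4 tested mesenchymal markers fell, VIM by 0.82 ± 0.07 from 630 to 357 CPM, CDH2 by 0.78 ± 0.05 and FN1 by 1.44 ± 0.10 on the log2 scale (adjusted p = 4.88e-10, 3.17e-12 and 2.60e-12, edgeR). The summed level of the 6 was 517 to 528 CPM there, 910 to 959 CPM in its control set, 615 to 776 CPM in the second control set and 732 to 935 CPM in the second knockout. EPCAM also fell in the SLC30A10 knockout (-2.18 ± 0.34, adjusted p = 9.43e-06, edgeR), while KRT8 and KRT18 rose there by 0.36 ± 0.10 and 0.26 ± 0.06 (adjusted p = 0.00634 and 0.000648, edgeR) and fell in the second knockout by 1.35 ± 0.13 and 0.22 ± 0.06 (adjusted p = 9.91e-09 and 0.0115, edgeR). The summed epithelial level was 56.7 to 64.1 CPM in the SLC30A10 knockout, 47.8 to 55.5 CPM in its control set, 46.6 to 51.5 CPM in the second control set and 37.0 to 40.4 CPM in the second knockout. TAL1, a transcription factor of blood formation, fell from 77.9 to 13.4 CPM in the second knockout (-2.54 ± 0.06, adjusted p = 1.54e-22, edgeR) and set the summed blood level, which was 12.8 to 14.5 CPM there and 68.6 to 84.2 CPM in all other groups. The part of these shifts in the HOXC values was not tested, and a change in the mix of cells cannot be told apart from a change within them.

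HOTAIR was near the floor in 3 of the groups and abundant in the remaining one. In the SLC30A10 knockout its libraries held 258, 260, 229 and 236 counts, or 15.2 ± 1.03 CPM. Its own control set held 8, 12, 10 and 9 counts, or 0.594 ± 0.103 CPM. The groups did not overlap, and the knockout stood 25.7-fold above its control set, a log2 fold change of 4.66 ± 0.15 (SE). The second control set held 2, 3, 3 and 3 counts of HOTAIR, or 0.167 ± 0.0296 CPM. All 4 libraries of the second knockout held 0, which allows up to 0.182 to 0.187 CPM in each. These groups are at or under the floor of 3 counts, so no fold is given between them. Every library of the SLC30A10 knockout thus lay above every other library of the series, and its mean was at least 83.6-fold above the floor of the second control set.

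HOXC11, the coding gene that overlaps HOTAIR on the opposite strand, had almost the same profile. The SLC30A10 knockout held 262, 224, 232 and 258 counts of HOXC11, or 15.1 ± 1.22 CPM. Its control set held 11, 13, 7 and 11 counts, or 0.639 ± 0.152 CPM. The groups were far apart, with a 23.7-fold higher level in the knockout and a log2 fold change of 4.55 ± 0.18 (SE). In the second control set the counts were 7, 8, 1 and 8, or 0.365 ± 0.205 CPM, which overlaps the SLC30A10 control set. All 4 libraries of the second knockout held 0 counts, at least 1.99-fold lower than the second control set when the knockout is placed at the floor. HOTAIR and HOXC11 passed the expression filter only through the SLC30A10 knockout: 9 of the 10 genes passed it, and 7 would pass without those libraries.

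**Figure D1:**
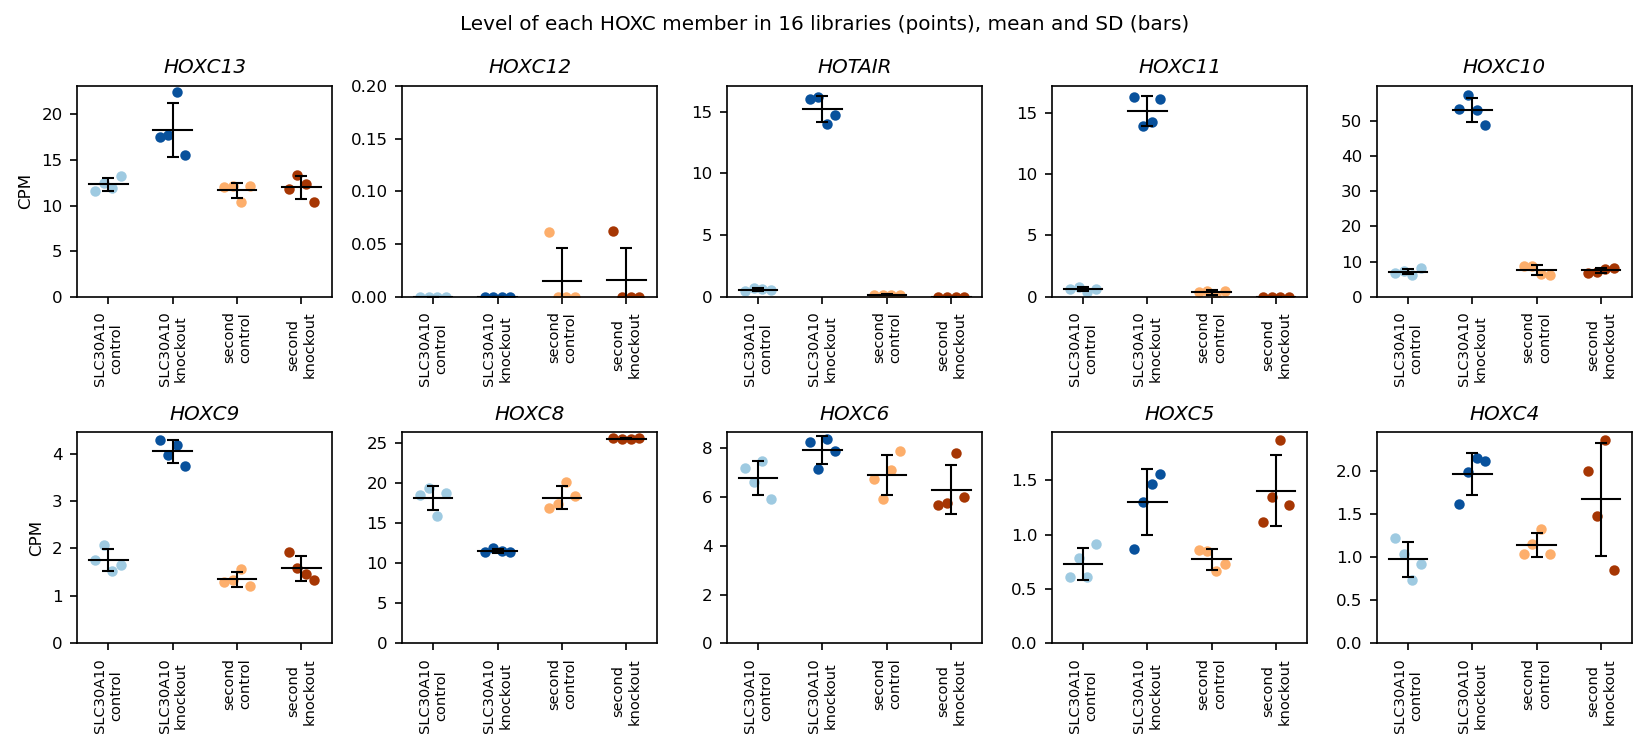
Levels of the HOXC genes and HOTAIR in each of the 16 libraries, in CPM on linear axes of different range, with a panel for each gene, a point for each library and bars for the mean and SD (n = 4). HOTAIR and HOXC11 stand at 13.9 to 16.3 CPM in the SLC30A10 knockout and under 1 CPM in every other library, and HOXC8 is the gene whose lowest group is the SLC30A10 knockout.

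HOXC10 and HOXC9, the next genes towards the head end, were also higher in the SLC30A10 knockout but were already expressed in the controls. HOXC10 had 53.3, 57.4, 53.0 and 48.9 CPM in the SLC30A10 knockout. Its control set had 6.82, 7.47, 6.28 and 8.11 CPM. The groups did not overlap, and the mean was 7.41-fold higher in the knockout (log2 fold change 2.89 ± 0.09, SE). The second knockout had 6.86 to 8.17 CPM of HOXC10 against 7.64 ± 1.35 CPM in the second control set, with overlapping libraries. HOXC9 was scarce, at 4.04 ± 0.241 CPM in the SLC30A10 knockout and 1.75 ± 0.231 CPM in its control set. All 4 HOXC9 values of the knockout, from 3.74 to 4.29 CPM, lay above those of the controls, from 1.52 to 2.06 CPM, and the log2 fold change was 1.20 ± 0.15 (SE). The second knockout, at 1.58 ± 0.260 CPM, overlapped the second control set, at 1.35 ± 0.152 CPM.

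HOXC8 went the other way in the SLC30A10 knockout. Its libraries had 11.4, 11.9, 11.5 and 11.4 CPM there. The control set had 18.5, 19.4, 15.9 and 18.8 CPM. Every knockout library was lower than every control library, and the mean was 1.57-fold lower (log2 fold change -0.65 ± 0.08, SE). The second knockout had HOXC8 at 25.6, 25.4, 25.5 and 25.5 CPM. The second control set had 16.8, 17.3, 20.1 and 18.3 CPM of HOXC8. Here every knockout library was higher, by 1.40-fold in the mean (log2 fold change 0.49 ± 0.07, SE). HOXC8 was thus lower in the one knockout and higher in the other. This was the reverse of HOXC11 in both and of HOTAIR in the SLC30A10 knockout, as HOTAIR was at or under the floor in the second contrast. The difference of the effects was not tested because these contrasts chose the cluster.

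HOXC13 and HOXC12 lie beyond HOTAIR at the tail end of the cluster. HOXC13 had 17.5, 17.8, 22.5 and 15.5 CPM in the SLC30A10 knockout and 11.6 to 13.2 CPM in its control set. The groups did not overlap, and the mean was 1.49-fold higher in the knockout (log2 fold change 0.57 ± 0.10, SE). HOXC13 had, in the second knockout, 12.0 ± 1.26 CPM, within the spread of the second control set at 11.7 ± 0.865 CPM. HOXC12, which lies between HOXC13 and HOTAIR, held 0 counts in 14 libraries and 1 count in 1 library of the second control set and 1 of the second knockout. HOXC12 was therefore not detectable at this depth in any group, including the group in which both of its neighbours were higher, and it was not tested.

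At the head end HOXC6 was moderately expressed, and HOXC5 and HOXC4 were scarce in every group. HOXC6 had 7.93 ± 0.562 CPM in the SLC30A10 knockout and 6.80 ± 0.697 CPM in its control set, with overlapping libraries. HOXC5 had 1.30 ± 0.306 CPM against 0.731 ± 0.149 CPM there, also with overlap. HOXC4 had 1.97 ± 0.244 CPM in the SLC30A10 knockout, with 1.62 CPM in the lowest library, against 0.974 ± 0.204 CPM and at most 1.22 CPM in its control set, so the groups did not overlap. HOXC5 in the second knockout lay above its control set in every library, at 1.40 ± 0.329 against 0.774 ± 0.0944 CPM. HOXC4, at 1.67 ± 0.658 CPM there, overlapped the second control set, at 1.14 ± 0.137 CPM, since its 4 libraries ran from 0.848 to 2.36 CPM. HOXC6 overlapped as well, at 6.31 ± 1.01 against 6.92 ± 0.814 CPM.

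Counted over the 10 genes, the libraries of the SLC30A10 knockout lay wholly above its control set for 6 (HOXC13, HOTAIR, HOXC11, HOXC10, HOXC9 and HOXC4), wholly below for HOXC8, and overlapped for 3. Over all tested genes the groups did not overlap for 38.3%. In the second knockout 2 genes lay above (HOXC8 and HOXC5), 2 below (HOTAIR and HOXC11) and 6 overlapped, where 16.3% of all tested genes did not overlap. HOTAIR was at or under the floor of detection in both groups of that contrast. HOTAIR and HOXC11 chose the cluster by these contrasts, and nothing is read from the shares. Along the chromosome the log2 fold changes of the SLC30A10 knockout went from 0.57 at HOXC13 to 4.66 at HOTAIR and 4.55 at HOXC11, then stepped down through 2.89 at HOXC10 and 1.20 at HOXC9 to -0.65 at HOXC8. HOXC6, HOXC5 and HOXC4 followed with 0.22 ± 0.11, 0.83 ± 0.25 and 1.01 ± 0.25 (SE). The largest values are those of HOTAIR and HOXC11, which were chosen for their rise in this contrast, so nothing is read from the place of the peak. HOXC8 alone had a value below 0, with values above 0 on both sides of it. For the second knockout HOXC6, HOXC5 and HOXC4 gave -0.13 ± 0.12, 0.86 ± 0.24 and 0.55 ± 0.25 (SE).

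**Figure D2:**
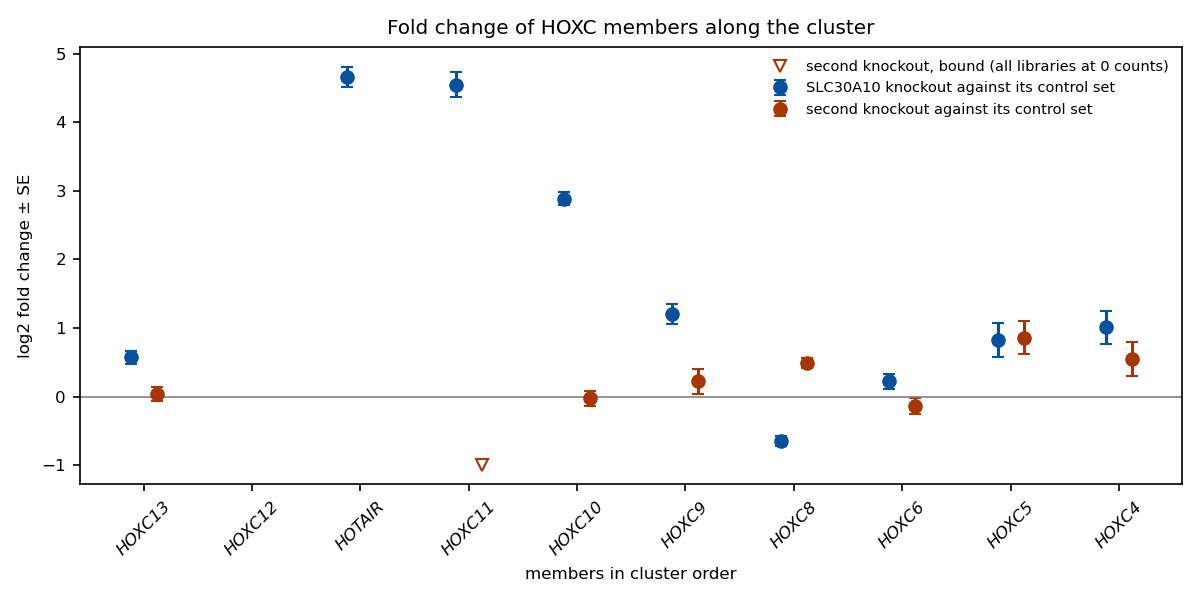
Log2 fold changes (± SE) of the HOXC genes in cluster order for the SLC30A10 knockout and the second knockout, each against its own control set. The SLC30A10 knockout is highest at HOTAIR (4.66) and HOXC11 (4.55), which were chosen for their rise there, and is below 0 only at HOXC8 (-0.65). The open triangle marks the bound for HOXC11 in the second knockout, where HOTAIR is left out because both groups are at the floor. HOXC12 is left out because it was not detected.

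Summed over the 10 genes, the output of the cluster was 49.1 ± 2.64 CPM in the SLC30A10 control set and 129 ± 4.55 CPM in the SLC30A10 knockout. The second control set gave 48.2 ± 0.139 CPM and the second knockout 56.0 ± 2.41 CPM. HOTAIR, HOXC11 and HOXC10 together made up 64.9 ± 2.12% of the counts of the cluster in the SLC30A10 knockout. The same 3 genes made up 17.1 ± 1.06% in its control set, 14.3 to 19.5% in the second control set and 13.4 ± 1.27% in the second knockout. These 3 genes outweighed the other 7 only in the SLC30A10 knockout. HOTAIR and HOXC11 were chosen for their rise in that knockout and HOXC10 had the next largest rise there, so the larger share restates how the 3 were picked.

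**Figure D3:**
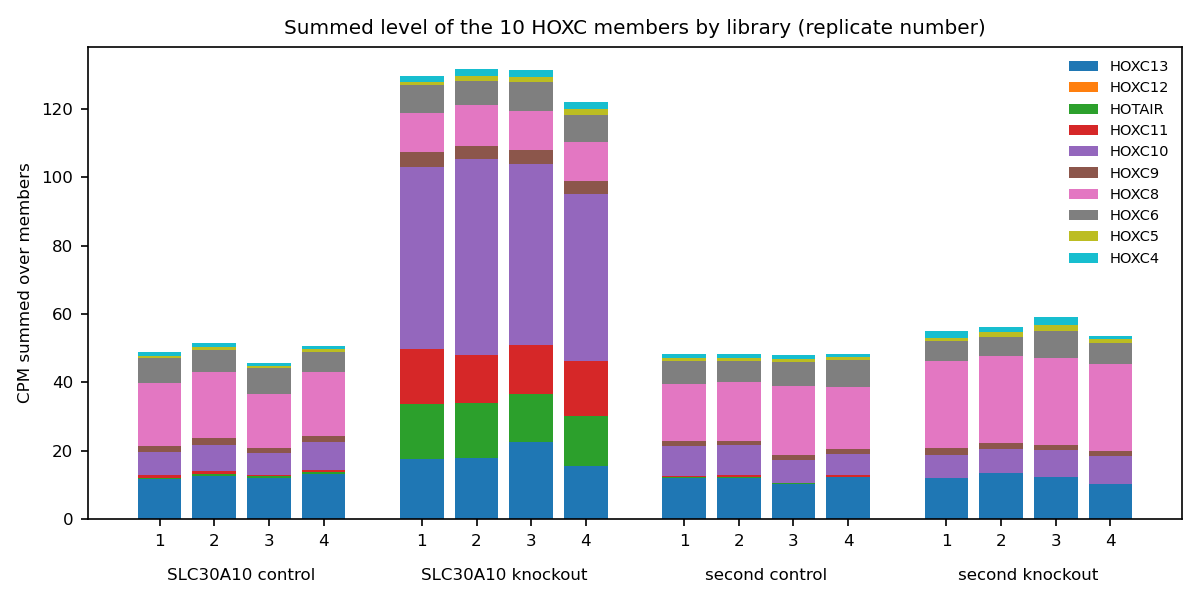
Summed level of the 10 genes in each library, in CPM, as stacked bars with a colour for each gene. The group mean is 129 CPM in the SLC30A10 knockout and between 48.2 and 56.0 CPM in the other groups, and HOXC10 supplies the largest share of the excess.

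Levels can be ranked between genes only per length, in CPM per kilobase of exon. In the SLC30A10 control set the order of that level was HOXC8 (9.59 ± 0.822), HOXC13 (5.08 ± 0.297), HOXC10 (3.70 ± 0.409), HOXC6 (2.09 ± 0.215) and HOXC9 (1.12 ± 0.149), with HOXC4, HOXC5, HOTAIR and HOXC11 between 0.430 and 0.196. Neighbours among these last 4 lay within their spread of each other. In the SLC30A10 knockout HOXC10 came first at 27.5 ± 1.78 CPM per kilobase, followed by HOXC13 at 7.56 ± 1.22. HOTAIR (6.29 ± 0.427) came next and did not differ beyond the spread from HOXC13 or from HOXC8 (6.10 ± 0.123), and HOXC11 stood at 4.63 ± 0.374. HOXC9 (2.60 ± 0.155) and HOXC6 (2.44 ± 0.173) lay within their spread of each other, which they had not in the control set, and HOXC4 and HOXC5 remained under 1 CPM per kilobase. HOXC8 led in the second knockout at 13.5 ± 0.0277 CPM per kilobase, and HOTAIR and HOXC11 were at 0.

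The control sets were also compared with each other, a contrast that the choice of the cluster did not name but whose libraries enter both contrasts that it used. HOTAIR and HOXC11 passed the expression filter through the SLC30A10 knockout alone, so their values between the control sets are given without a test. HOTAIR held 8 to 12 counts in the SLC30A10 control set and 2 to 3 counts in the second control set. The groups did not overlap, which also held for 36.3% of all tested genes, and the SLC30A10 control set was at least 3.26-fold above the floor. HOXC11 overlapped, with 7 to 13 counts in the SLC30A10 control set and 1 to 8 in the second. Of the other 7 genes that passed the filter, 0 passed the test by edgeR and 0 by DESeq2, and 0 had an unadjusted p under 0.05 by either tool, where 39.3% of all tested genes were called by edgeR. Among these, HOXC9 gave a log2 difference of 0.37 ± 0.18 (adjusted p = 0.130, edgeR), and the remaining 6 lay between -0.22 and 0.08 (adjusted p of 0.550 to 0.971, edgeR).

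Besides the 10 genes the table holds 7 rows for other transcripts of the cluster, mostly antisense RNAs, of which 3 passed the filter. All 3 passed it only with the libraries of the SLC30A10 knockout, so their values are given without a test. HOXC-AS1 had 1.27 ± 0.286 CPM in the SLC30A10 knockout and 0.426 ± 0.110 CPM in its control set (log2 fold change 1.56 ± 0.30, SE). HOXC-AS2 was higher there as well, with 2 to 4 counts in the control set and 6 to 19 in the knockout (log2 fold change 2.30 ± 0.52, SE). In the second knockout HOXC-AS2 held 2 to 11 counts, against 0 to 4 in the second control set (2.72 ± 0.75, SE), with libraries that overlap. HOXC13-AS held 6 to 14 counts in the second knockout and 1 to 7 in the second control set (1.27 ± 0.41, SE). The SLC30A10 control set held 8 to 13 counts of it (1.30 ± 0.41, SE, against the second control set). HOXC-AS3, opposite HOXC10, held 8 to 20 counts in the SLC30A10 knockout and 0 to 5 in all other libraries and did not pass the filter. Use of strand in the counting is not given in the sources used here. On opposite strands HOXC13 shares 172 exon bases with HOXC13-AS, HOXC10 shares 44 with HOXC-AS3 and HOXC9 shares 10 with HOXC-AS2. HOTAIR likewise shares 69 with the annotated gene RF01905 and 97 with RF01906, together 6.86% of its exon bases. Reads from all these bases therefore cannot be told apart. HOXC10 also shares 166 exon bases with the annotated gene AC012531.2 on the same strand, where reads cannot be given to a single gene.

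The flanking genes describe the chromosome on either side of the cluster. Of the 10 tested genes on each side of the cluster, 8 of 20 passed the test in the SLC30A10 knockout, 5 higher and 3 lower, where 41.4% of all tested genes passed. Their median log2 fold change was 0.05, beside -0.02 for the 689 tested genes of chromosome 12. The nearest tested gene before HOXC13 was CALCOCO1, a coactivator and autophagy receptor 211 kb away, which fell (log2 fold change -0.51 ± 0.09, adjusted p = 3.74e-05, edgeR). The nearest after HOXC4 was SMUG1, a DNA repair glycosylase 102 kb away, at 14.3 CPM in the control set and 12.9 CPM in the knockout, which did not pass (-0.15 ± 0.08, adjusted p = 0.109, edgeR). The flanking gene with the smallest p was PDE1B, a cyclic nucleotide phosphodiesterase 494 kb away, which rose from 1.37 to 5.27 CPM (1.94 ± 0.20, adjusted p = 1.27e-08, edgeR). Its log2 fold change lay between those of HOXC10 (2.89) and HOXC9 (1.20). PRR13 on the other side rose by 0.33 ± 0.05 (adjusted p = 5.55e-06, edgeR).

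In the second knockout 4 of the 20 flanking genes passed the test, 3 higher and 1 lower and all beyond HOXC4, where 13.7% of all tested genes passed. ZNF385A, a zinc finger protein gene 313 kb away, rose (0.66 ± 0.07, adjusted p = 6.51e-08, edgeR), and GTSF1, a small RNA pathway factor, rose by 0.34 ± 0.05 (adjusted p = 3.17e-05, edgeR). CALCOCO1 and SMUG1 did not pass there, at 0.08 ± 0.08 and 0.02 ± 0.08 (adjusted p = 0.561 and 0.886, edgeR).

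**Figure D4:**
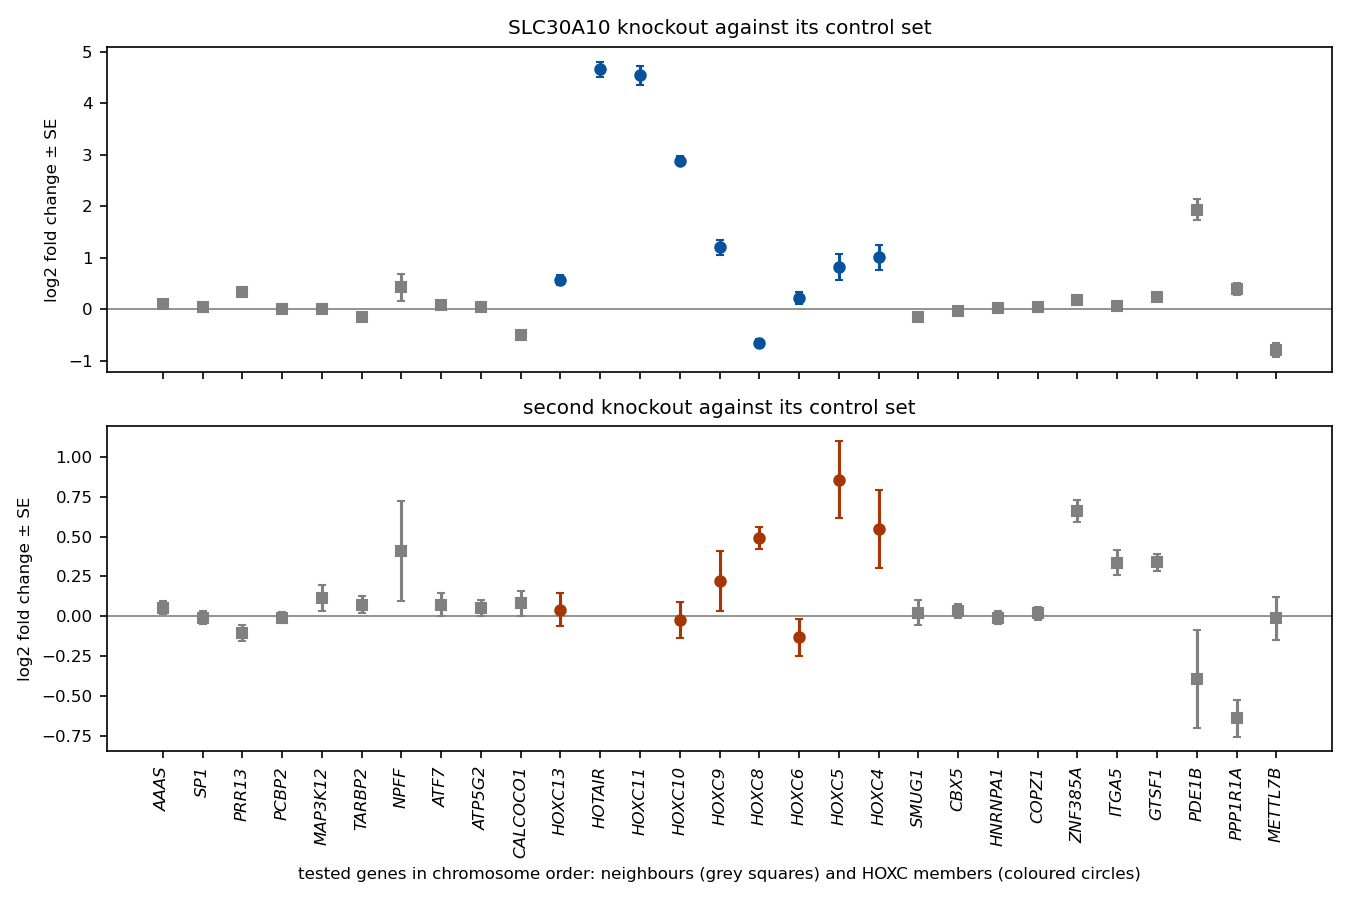
Log2 fold changes (± SE) of the 10 tested genes on each side of the cluster (grey squares) with the HOXC genes between them (coloured circles), in chromosome order, in a panel for each knockout with its own scale. PDE1B (1.94) is the highest flanking gene in the SLC30A10 knockout, beside 2.89 at HOXC10 and 1.20 at HOXC9, and ZNF385A (0.66) is the highest in the second. HOTAIR and HOXC11 are left out of the lower panel, where they held 0 counts in the knockout.

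The factors known to regulate HOX clusters or to bind HOTAIR were listed from textbook knowledge in 7 groups with 99 rows, 92 of them tested. In the SLC30A10 knockout 49 of the 92 passed the test, 23 higher and 26 lower, with a median log2 fold change of -0.01, beside -0.00 for all tested genes. The share that passed is to be read beside the 41.4% of all genes. For the second knockout 16 passed, 7 higher and 9 lower, with a median of -0.02, beside 13.7% of all genes.

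Among the PRC2 subunits, 2 rose and 5 fell of 14 in the SLC30A10 knockout, and 2 rose and 1 fell in the second knockout. EZH2, the methyltransferase of the complex, fell from 135 ± 3.20 to 98.9 ± 5.33 CPM in the SLC30A10 knockout (log2 fold change -0.45 ± 0.04, adjusted p = 3.88e-09, edgeR). EZH2 did not pass in the second knockout (0.10 ± 0.04, adjusted p = 0.113), and the effects differed by -0.55 ± 0.06 (adjusted p = 6.91e-08, edgeR). The core partners SUZ12 and EED did not pass in the SLC30A10 knockout, at 0.10 ± 0.04 and -0.12 ± 0.06 (adjusted p = 0.0642 and 0.113, edgeR). RBBP7, a histone-binding subunit, rose by 0.34 ± 0.04 (adjusted p = 3.50e-08, edgeR). CXorf67, a PRC2 inhibitor also called EZHIP, was scarce in the control set at 0.518 CPM and had 0 counts in all 4 libraries of the SLC30A10 knockout, at least 2.78-fold lower. CXorf67 passed the expression filter only through the second knockout, so its values are given without a test, although the counts of the list above include it. It held 13 to 19 counts in the second knockout and 5 to 12 in the second control set (log2 fold change 0.98 ± 0.29, SE). JARID2, an accessory subunit, rose in the second knockout by 0.17 ± 0.05 (adjusted p = 0.0242, edgeR). That call was lost without replicate 1, 3 or 4 of the second control set or 2 of the second knockout (adjusted p of 0.0563 to 0.0922, edgeR).

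The LSD1/CoREST/REST list, the other reported partner of HOTAIR, had 2 higher and 2 lower of 7 in the SLC30A10 knockout, with 1 lower in the second. KDM1A, which encodes LSD1, had 343 CPM in both groups (0.00 ± 0.04, adjusted p = 0.945, edgeR), and REST did not pass (-0.13 ± 0.06, adjusted p = 0.0664). RCOR1, which encodes CoREST, rose by 0.14 ± 0.04 (adjusted p = 0.00714), and its paralogue RCOR2 rose by 0.14 ± 0.05 in the SLC30A10 knockout (adjusted p = 0.0175) and fell by 0.24 ± 0.05 in the second (adjusted p = 0.000555, all edgeR). The rise of RCOR2 was lost without replicate 1 of the SLC30A10 knockout (adjusted p = 0.0503). Of the PRC1 list, 5 rose and 5 fell of 21 in the SLC30A10 knockout, while 1 rose in the second. PHC3, a subunit of PRC1, rose by 0.44 ± 0.04 (adjusted p = 4.08e-09) and SCML2, a Polycomb-associated protein, by 0.41 ± 0.04 (adjusted p = 8.53e-09), and PCGF3 was the one that rose in the second knockout, by 0.21 ± 0.04 (adjusted p = 0.00129, all edgeR).

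Of the trithorax list, 2 rose and 5 fell of 15 in the SLC30A10 knockout, and 2 rose and 1 fell in the second. KMT2A, the methyltransferase that maintains HOX transcription, fell by 0.13 ± 0.04 (adjusted p = 0.00785) and KMT2D by 0.20 ± 0.05 (adjusted p = 0.00169), whereas DPY30, a shared subunit, rose by 0.20 ± 0.05 (adjusted p = 0.0015, all edgeR). DOT1L, which methylates histone H3, rose in the second knockout by 0.24 ± 0.05 (adjusted p = 0.00142, edgeR). NSD1 fell in both knockouts, by 0.15 ± 0.04 and 0.14 ± 0.04 (adjusted p = 0.00201 and 0.0105, edgeR), and the second call was lost without replicate 3 of the second control set (adjusted p = 0.0658). The architecture list (CTCF and cohesin) had 3 higher and 3 lower of 11 in the SLC30A10 knockout. For the second knockout edgeR called 0 of the 11 and DESeq2 called 0, and 4 had an unadjusted p under 0.05 by either tool. CTCF, which marks boundaries within HOX clusters, fell by 0.23 ± 0.04 (adjusted p = 9.73e-05) and the cohesin subunits SMC1A and STAG2 rose by 0.35 ± 0.03 and 0.33 ± 0.04 (adjusted p = 6.08e-09 and 4.71e-08, all edgeR). RBBP7, SCML2, SMC1A and STAG2 lie on the X chromosome, whose 465 tested genes had a median log2 fold change of 0.36 in the SLC30A10 knockout, 75.5% of them past the test, and -0.01 in the second knockout. The part of that shift in their values was not tested.

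The TALE cofactors, homeodomain proteins that bind DNA together with HOX proteins, had 3 higher and 3 lower of 9 in the SLC30A10 knockout, with 2 lower in the second. MEIS3 rose by 0.83 ± 0.10 (adjusted p = 2.26e-07) and MEIS2 fell by 0.36 ± 0.04 (adjusted p = 1.57e-07, both edgeR) in the SLC30A10 knockout. The fall of MEIS2 in the second knockout (-0.13 ± 0.04, adjusted p = 0.0436, edgeR) was lost when any single library was left out other than replicate 3 of the SLC30A10 control set or replicate 4 of the second knockout (adjusted p of 0.0535 to 0.188). The list of upstream inducers, the CDX factors and genes of retinoic acid handling among them, had 6 higher and 3 lower of 15 in the SLC30A10 knockout, with 2 higher and 4 lower in the second. CDX2, a direct activator of HOX genes in the tail bud and gut, rose in both knockouts, from 5.18 to 11.6 CPM (1.16 ± 0.11, adjusted p = 2.71e-09) and from 4.96 to 8.33 CPM (0.75 ± 0.12, adjusted p = 3.09e-05, both edgeR). CRABP1, a retinoic acid-binding protein gene, also rose in both, by 0.61 ± 0.08 and 0.82 ± 0.08 (adjusted p = 1.58e-06 and 7.27e-09, edgeR). CRABP2, its paralogue, rose in the SLC30A10 knockout (0.37 ± 0.08, adjusted p = 0.000448) and fell in the second (-0.89 ± 0.08, adjusted p = 3.47e-09, both edgeR).

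Several of these values depend on which control set is used. With the control sets exchanged, the SLC30A10 knockout no longer differed past the threshold for RCOR1, PHC3, NSD1 and the flanking gene GTSF1, nor for RCOR2, KMT2D and CRABP2, whose signs turned. In the second knockout RCOR2 no longer passed under that exchange. EZH2, CTCF, KMT2A, RBBP7, CDX2, CRABP1 and MEIS3 kept their direction and call in the SLC30A10 knockout under every alternative fit. Of these, only CDX2 also reached a fold change of 2.

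**Figure D5:**
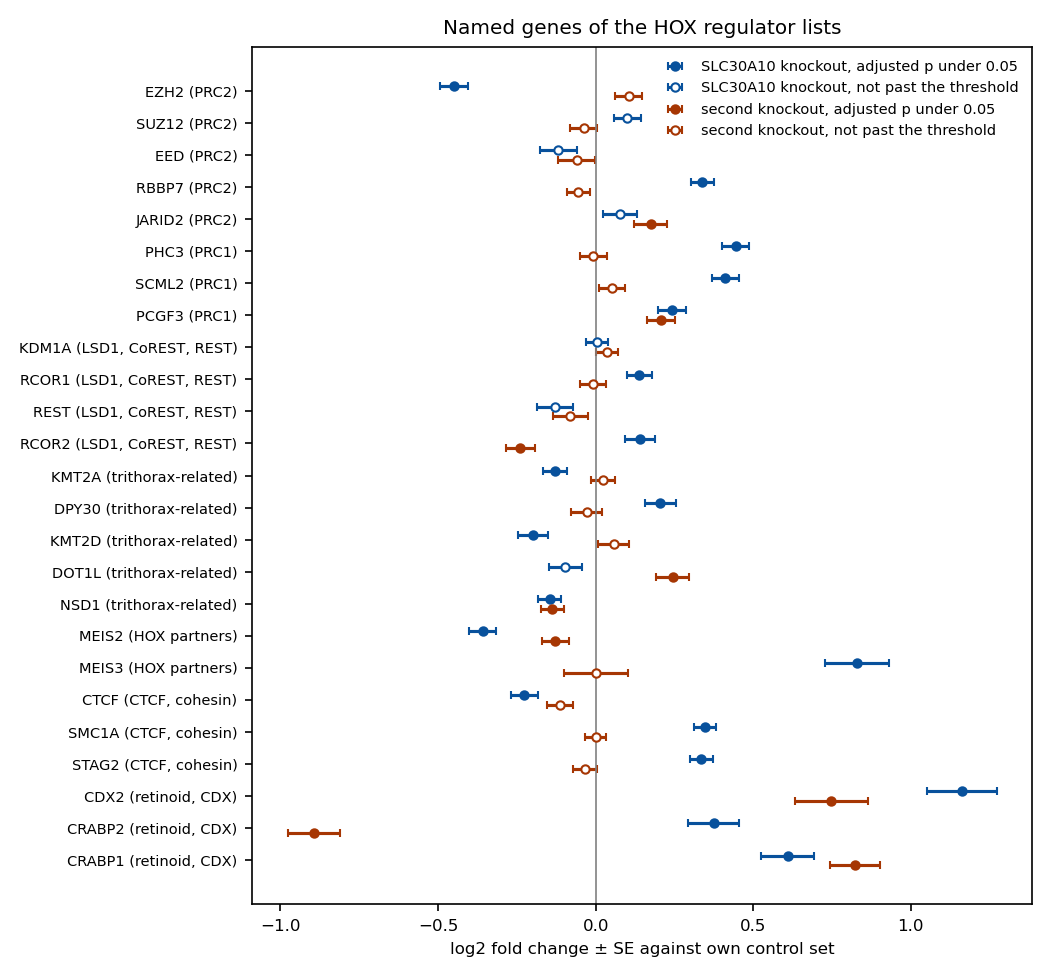
Log2 fold changes (± SE) of the named regulator genes in both knockouts, by list, without CXorf67, with filled points for an adjusted p under 0.05. EZH2 is at -0.45 and 0.10, CDX2 at 1.16 and 0.75, and CRABP2 is above 0 in the SLC30A10 knockout (0.37) and below 0 in the second (-0.89).

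The other HOX clusters had 30 coding rows, 25 of them tested. In the SLC30A10 knockout 5 rose and 7 fell, against 4 and 4 in the second knockout, where the background shares were 41.4% and 13.7%. HOXD13 rose in both (0.57 ± 0.06 and 0.32 ± 0.06, adjusted p = 6.70e-09 and 0.000282, edgeR), HOXB2 rose and HOXA7 fell in the SLC30A10 knockout (0.61 ± 0.07 and -0.65 ± 0.07, adjusted p = 2.00e-08 and 1.98e-08, edgeR), and HOXD8 rose in the second (0.58 ± 0.09, adjusted p = 5.49e-05, edgeR). HOXD11 and HOXD10, from the cluster that HOTAIR is reported to act on, fell in both knockouts. HOXD11 went from 2.22 ± 0.268 to 0.744 ± 0.282 CPM in the SLC30A10 knockout (-1.57 ± 0.24, adjusted p = 1.15e-05, edgeR) and to 0 counts in all 4 libraries of the second, a fall of at least 12.7-fold. HOXD10 went from 0.959 ± 0.379 to 0.263 ± 0.0784 CPM (-1.83 ± 0.41, adjusted p = 0.000674, edgeR) and, in the other knockout, to 0 to 1 counts, a fall of at least 8.27-fold. HOTAIR was high in the SLC30A10 knockout and at or under the floor in both groups of the second contrast. Whether HOTAIR has a part in these values was not tested.

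The genes most like HOTAIR and HOXC11 in profile were found by Pearson's correlation of log2 CPM across the 16 libraries, which share 4 groups, so that the values mostly reflect the group means. HOTAIR and HOXC11 were chosen for their shared direction in these libraries and passed the filter through the same group, so their likeness restates that choice. HOTAIR and HOXC11 were close to each other (r = 0.982), with HOXC11 at rank 4 among all tested genes for HOTAIR and HOTAIR at rank 1 for HOXC11. HOTAIR had r of 0.926 with HOXC9, 0.925 with HOXC10, 0.849 with HOXC13 and -0.942 with HOXC8, and HOXC11 had -0.963 with HOXC8. Outside the cluster the closest to HOTAIR were CACNA1B (0.986), LINC00649 (0.983), MED14 (0.983), SLC29A1 (0.981) and ERI1 (0.980). Those closest to HOXC11 were CACNA1B (0.980), WDR44 (0.972), HPGD (0.971), MED14 (0.970) and SMS (0.966). None of these 8 genes lies on chromosome 12. MED14, WDR44 and SMS are on the X chromosome, with the median of 0.36 given above, and ERI1 lies in the stretch of chromosome 8 up to RHOBTB2, whose 73 tested genes had a median log2 fold change of 0.96 in the SLC30A10 knockout, beside 0.02 in the other. In contrast, the tested genes of chromosome 12 passed the test at 40.5% in the first of these knockouts and 16.8% in the other.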

How the data were processed

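RNA of 16 HAP1 libraries was sequenced in pairs of reads after poly-A selection, per the labels' protocols. The authors deposited whole-number counts per gene symbol and a table of normalized signal, each column of which equals the count column times a constant (within 8.61e-06). HISAT2, featureCounts and DESeq2 and the builds hg38 and GRCh38 appear in the submitters' processing notes without versions or roles, and annotation and use of strand are not given in the sources used here. Groups and replicate numbers came from genotype and title. The gene deleted in the second knockout, and some genes that the rule below would name, are not reported here.

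The counts were fitted with edgeR 4.0.16 in R 4.3.3, all 16 libraries together with a mean for each of 4 groups and no covariate, after trimmed-mean scaling and edgeR's expression filter (minimum count 10, minimum total 15), which left 15569 genes. Quasi-likelihood tests were adjusted by Benjamini-Hochberg over all of them, with a threshold of 0.05. The procedure was tested on simulated data. Folds against a group with every library at or under 3 counts are bounds at that floor. Replicate pairs differed by 1.62 to 6.65 chi-square per degree of freedom, more than sampling noise, so none was merged. Exon lengths, overlaps and 3′ UTR sequences came from GENCODE basic models, neighbours and the upstream window from RefSeq GRCh38.p14.

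The members, the gene lists and the tests were chosen with earlier results of these data known. Named genes are the members, the nearest flanking gene on each side and the 2 flanking genes of lowest adjusted p per knockout. They also include up to 2 called genes of each regulator list and knockout, and EZH2, SUZ12, EED, KDM1A, RCOR1, REST, KMT2A and CTCF. Added to these are antisense transcripts past the filter, up to 3 called genes of the other HOX clusters, and the 5 nearest non-members in correlation (prior count 2). Alternatives were median-of-ratios factors, library totals, DESeq2 1.42.0, no filter, a mean count of 50, stricter thresholds, 8-library fits, pooled or exchanged control sets, a replicate block, each library left out and, chosen after seeing the data, the deposited size factors.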

Additional observations from a re-analysis of the deposited data

Results flagged for a closer look

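In 36 groups of 4 values the gap of an extreme library was compared with the range of its group by Dixon's test at 95%, where chance gives about 1.8 groups. In the second control set this share was 0.911 for HOXC13 (replicate 3, low), 0.975 for HOTAIR (replicate 1, 2 counts against 3 in the others) and 0.864 for HOXC11 (replicate 3, 1 count against 7 or 8). In the second knockout it was 0.850 for HOXC6 (replicate 3, high). For HOXC12 it was 1 in replicate 1 of the second control set and 1 in replicate 1 of the second knockout, where 1 library held 1 count and the others 0.

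HOTAIR and HOXC11 were above the control set in every library of the SLC30A10 knockout, by 14.6 and 14.5 CPM in the mean. They were below it in every library of the second knockout, where HOTAIR was at or under the floor in both groups. HOXC8 moved the other way, by -6.59 CPM in the SLC30A10 knockout. These differences between the knockouts were not tested, since they chose the cluster.

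For other genes the difference of the knockout effects, SLC30A10 minus second, passed edgeR's test of that difference (adjusted p of 1.86e-09 to 0.030). Of the Polycomb, LSD1 and trithorax genes it was -0.55 for EZH2, 0.39 for RBBP7, 0.45 for PHC3, 0.36 for SCML2, 0.38 for RCOR2, 0.23 for DPY30, -0.15 for KMT2A, -0.26 for KMT2D and -0.34 for DOT1L on the log2 scale. Of the cofactors, cohesin and upstream genes it was -0.23 for MEIS2, 0.83 for MEIS3, 0.35 for SMC1A, 0.37 for STAG2 and 1.27 for CRABP2. Of the flanking genes it was -0.59 for CALCOCO1, 2.33 for PDE1B, 0.44 for PRR13 and -0.48 for ZNF385A. Of the other HOX genes it was 0.25 for HOXD13, -0.69 for HOXA7, 0.70 for HOXB2 and -0.60 for HOXD8. The fitted differences of CXorf67 (-7.08, given without a test), HOXD11 (6.68) and HOXD10 (3.48) involve groups at or near 0 counts, depend on the prior count and are no bounds.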

How the results depend on the processing

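Counts of called genes kept within 1.5 times of the reported ones in 199 of 210 recomputations. In the SLC30A10 knockout 702 of the 6450 calls also reached a fold change of 2. In the second knockout, with 2132 calls, there were 358 with that fold, 1229 at an adjusted p under 0.01, 5341 with both control sets pooled and 7445 with the control sets exchanged. Between the control sets 218 of 6111 calls reached the fold of 2, and 0 members were called in the 8-library fit, where HOTAIR and HOXC11 fell below the expression filter and 0 of the 7 members tested by edgeR had an unadjusted p under 0.05. Pooling and exchanging the control sets gave 11 and 14 called flanking genes in the second knockout in place of 4, and 26 and 48 regulators in place of 16. The cause was not tested.

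With the control sets exchanged, HOXC9 in the second knockout turned to -0.15, and in the SLC30A10 knockout RCOR2 turned to -0.11, KMT2D to 0.035 and CRABP2 to -0.10. In the second knockout RCOR2 turned to 0.0074. Against pooled or exchanged controls HOTAIR in the SLC30A10 knockout gave 5.56 or 6.45, HOXC11 4.95 or 5.35 and HOXC9 1.39 or 1.58.

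Leaving out each library in turn gave 5657 to 6617, 1570 to 2421 and 5053 to 6301 called genes in the SLC30A10 knockout, the second knockout and the control sets.

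The replicate numbers did not pair the libraries: same-numbered libraries had deviations from their group means that correlated by -0.0699 to 0.116 over both knockouts and by -0.103 to 0.110 between the control sets, and 0, 2 and 4 of 8 libraries correlated best with their own number in the SLC30A10 knockout, the second knockout and the control sets. With the replicate number as a block the calls were 6497, 2160 and 6181.

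Depth limits HOTAIR, HOXC11, HOXC12, HOXC5 and HOXC4, which held few counts in most groups.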
